A study of Mus musculus with 23 samples.

Results

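Inflammasomes are protein platforms that assemble in the cytosol of macrophages and related cells after infection or damage and switch on inflammatory caspases. The 8 genes described here encode the parts of that machinery: the sensors Nlrp3, Aim2 and Nlrc4, the kinase Nek7 that NLRP3 needs for assembly, the adaptor Pycard (ASC), the caspases Casp1 and Casp4 (caspase-11), and the pore protein Gsdmd. They were taken by symbol from the 53090 genes in each deposited table, and 8 of the 8 passed the filter on low counts that left 18720 genes for testing.

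The libraries came from microglia, the resident macrophages of the brain, of female C57BL/6 mice. The groups were young mice (n = 7), young mice after microglial repopulation (n = 3), old mice (n = 5) and old mice after repopulation (n = 8). PLX5622, an inhibitor of the receptor CSF1R on which microglia depend for survival, was mixed into AIN-76A chow at 1200 ppm to deplete the cells, and treatment controls ate that chow with no drug. The labels name no transgene or mutant allele in any group. They give neither the ages, nor the days on the drug, nor the time allowed for repopulation, nor which young and old mice ate the control chow. Totals ran from 43.7 to 58.2 M expected counts per library. Young replicate 3 stood apart from the other young libraries in several genes, and values without it are given beside those genes. The protocol texts describe magnetic CD11b selection followed by culture as well as sorting by flow cytometry, and the RNA text names sorted microglia. Nothing in the labels says which libraries came from separate mice, so the p-values measure the spread between these libraries.

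An inflammasome works in steps. A sensor meets its trigger, cytosolic DNA for AIM2, bacterial flagellin and secretion-system proteins relayed by NAIP proteins for NLRC4, and a wide range of cell stress for NLRP3. The sensor recruits caspase-1, usually through ASC, and caspase-1 matures the cytokines interleukin-1 beta and interleukin-18 and cleaves gasdermin D, whose free end forms pores in the membrane and leads to pyroptosis, a lytic cell death. Caspase-11, the product of mouse Casp4, binds bacterial lipopolysaccharide inside the cell and cleaves gasdermin D without caspase-1. In microglia NLRP3 is the sensor most often studied.

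The genes lie on 6 chromosomes. In GENCODE M21 (GRCm38), Nlrp3 is at chr11:59541568-59566956 (+), Pycard at chr7:127989708-127993867 (-), Aim2 at chr1:173350879-173466040 (+) and Nek7 at chr1:138482875-138620141 (-). Casp1 at chr9:5298517-5307265 (+) and Casp4 at chr9:5308828-5336783 (+) are neighbours on the same strand, with 1562 bases between them. The deposited identifiers of Gsdmd and Nlrc4 carry other versions than GENCODE M21, and RefSeq (GRCm38.p6) places them at chr15:75862144-75867408 and chr17:74426255-74459144. All 8 are annotated as protein-coding.

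The sequence before the start is shown for 4 genes: Nlrc4, Pycard and Casp4, which passed edgeR's test in at least 1 comparison with the largest changes, and Casp1, the neighbour of Casp4 that passed it in none. The sequences are from RefSeq (GRCm38.p6), read 5′ to 3′ on the strand of the gene, and end before the first annotated start. Capitals mark matches to the motifs described after them. The windows are chr17:74459145-74459358 for Nlrc4, chr7:127993868-127994117 for Pycard, chr9:5298267-5298516 for Casp1 and chr9:5308599-5308827 for Casp4.
Nlrc4: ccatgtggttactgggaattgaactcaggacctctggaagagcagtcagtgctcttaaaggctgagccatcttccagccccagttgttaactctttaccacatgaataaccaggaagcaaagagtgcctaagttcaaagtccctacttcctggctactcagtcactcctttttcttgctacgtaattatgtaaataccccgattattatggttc
Pycard: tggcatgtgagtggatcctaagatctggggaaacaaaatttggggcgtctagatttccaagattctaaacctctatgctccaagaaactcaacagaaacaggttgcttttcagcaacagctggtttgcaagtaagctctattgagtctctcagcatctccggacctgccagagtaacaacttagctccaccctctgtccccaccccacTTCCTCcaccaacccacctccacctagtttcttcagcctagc
Casp1: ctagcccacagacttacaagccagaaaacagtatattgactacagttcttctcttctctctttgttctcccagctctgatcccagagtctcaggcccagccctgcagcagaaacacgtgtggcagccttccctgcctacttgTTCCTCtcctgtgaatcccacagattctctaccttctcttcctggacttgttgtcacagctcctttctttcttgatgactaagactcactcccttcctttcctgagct
Casp4: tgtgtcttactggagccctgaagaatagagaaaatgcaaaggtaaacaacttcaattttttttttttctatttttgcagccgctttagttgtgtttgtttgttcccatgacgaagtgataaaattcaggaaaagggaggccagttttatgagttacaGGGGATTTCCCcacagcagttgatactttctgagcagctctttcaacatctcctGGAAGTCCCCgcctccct

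RefSeq promoters of 300 bases (250 before and 50 after the start) were found for 7 of the 8 genes, all but Gsdmd, and were searched on both strands for 5 motifs. Casp4 has 2 RefSeq promoters that overlap and hold the same 3 matches to the NF-kappaB motif, beginning 93, 92 and 39 bases before the upstream start and 104, 103 and 50 bases before the other. The first 2 matches overlap each other. That motif has a match in 8.46% of the 32851 promoters of that length. Casp1 and Pycard each hold 1 match to the PU.1 core GAGGAA, 108 and 42 bases before the start, and 28.3% of all promoters hold one. Of the 2 Nlrp3 promoters, 1 holds 1 NF-kappaB match and the other 3 PU.1 cores, and the Aim2 promoter holds 2 PU.1 cores. The Nlrc4 and Nek7 windows held none of the 5 motifs. None of the 7 genes held the interferon-response core GAAANNGAAA, the GAS motif TTCNNNGAA or the AP-1 motif TGANTCA, which occur in 3.44%, 8.3% and 7.81% of promoters.

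Levels between genes were compared as the deposited TPM (transcripts per M), a value scaled by gene length. In young mice 7 of the 8 genes were among the more abundant transcripts and 1, Nlrc4, was near the floor. Pycard (261 ± 24.6 TPM, SD, n = 7) and Nlrp3 (250.0 ± 56.3) came first and did not differ beyond their spread. They were followed by Aim2 at 133 ± 11.2, then by Gsdmd (96.2 ± 6.12), Casp4 (95.6 ± 14.4) and Nek7 (93.7 ± 11.4), which overlapped one another, and by Casp1 at 53.8 ± 8.56. Nlrc4 stood at 0.394 ± 0.241 TPM, above 19.2% of the tested genes, whereas Pycard stood above 97.1% and Casp1 above 85.5%.

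**Figure D1:**
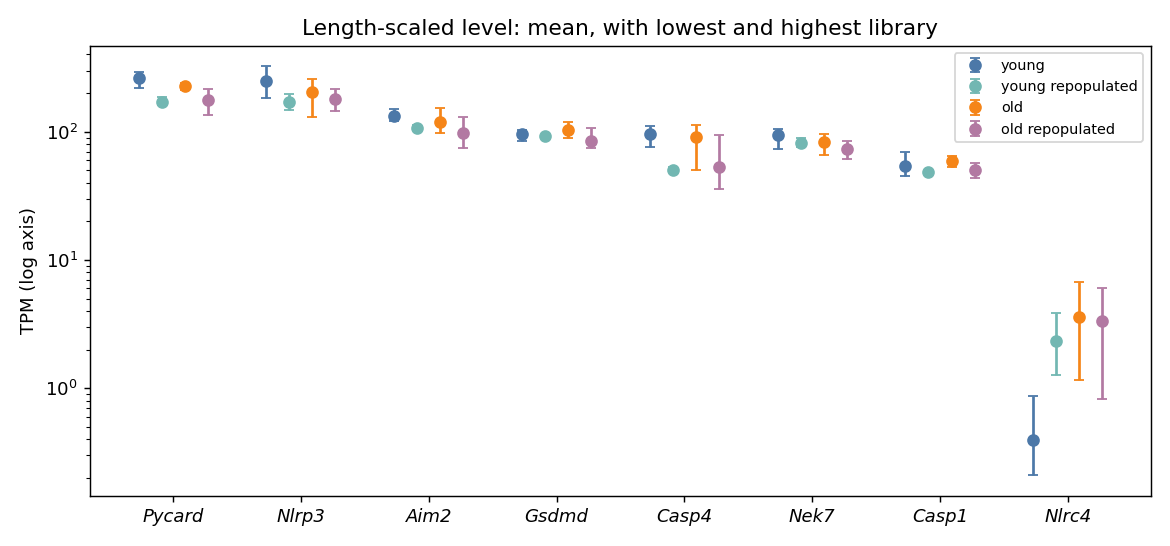
Deposited TPM of the 8 genes (log axis) by group, with the group mean as a point and the lowest and highest library as the ends of the line. Nlrc4 lies below the other 7 genes in every group, and the mean of Casp4 lies below that of Nek7 in both repopulated groups.

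The order changed beyond the spread at 1 place, Casp4 in the young repopulated group. In young and old mice Casp4 lay level with Gsdmd and Nek7, at 90.4 ± 25.9 TPM (n = 5) in the old. In the repopulated groups its mean lay below that of Nek7, at 49.9 ± 2.36 in the young (n = 3) and 53.0 ± 18.3 in the old (n = 8). Those means were level with Casp1 at 48.7 ± 1.03 and 50.2 ± 4.64. In the old repopulated group Casp4 (35.45 to 94.05 TPM) and Nek7 (61.52 to 85.33 TPM) overlapped. In both repopulated groups Pycard and Nlrp3 differed by less than their spread, with Nlrp3 nominally first in the old repopulated group: they stood at 171 ± 14.0 and 170.2 ± 24.8 TPM in the young and 178 ± 27.3 and 179.9 ± 24.0 in the old. These are levels of 1 RNA mixture per library, in which fewer cells of a type and less RNA per cell cannot be told apart.

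Differences between groups were tested on counts with edgeR's quasi-likelihood test, and values below are TMM-scaled counts per M (CPM). Throughout, "adjusted p" is the Benjamini-Hochberg value over all 18720 genes, and a gene counts as called below 0.05. In old against young mice, 1 of the 8 genes was called, against 2.83% of all genes tested. In young repopulated against young mice 2 were called (background 1.34%), and in old repopulated against young mice 5 were called (background 15.2%). Between old repopulated and old mice 0 were called by edgeR (background 0.278%), and 3 had an unadjusted p under 0.05 (background 10.4%). DESeq2 and limma's voom called 1 each there (background 2.21% in each). Between the 2 repopulated groups 0 were called by edgeR, DESeq2 or voom (background 0%, 0.433% and 17%). By edgeR 0 had an unadjusted p under 0.05 there (background 11.7%).

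The groups did not overlap for 1 gene in old against young mice (higher, as were 1.43% of all genes), for 4 in young repopulated against young (1 higher and 3 lower, as were 5.97% and 6.11% of all genes), and for 1 in old repopulated against young (lower, as were 1.26%). The median log2 difference over the 8 genes was -0.13 in old against young, -0.27 in young repopulated against young, -0.32 in old repopulated against young, -0.16 in old repopulated against old and 0.04 in old repopulated against young repopulated mice. Over all genes tested the same medians were -0.01, -0.04, -0.02, 0.00 and 0.05. The comparisons with young mice share the 7 young libraries, and those with old repopulated mice share its 8 libraries.

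**Figure D2:**
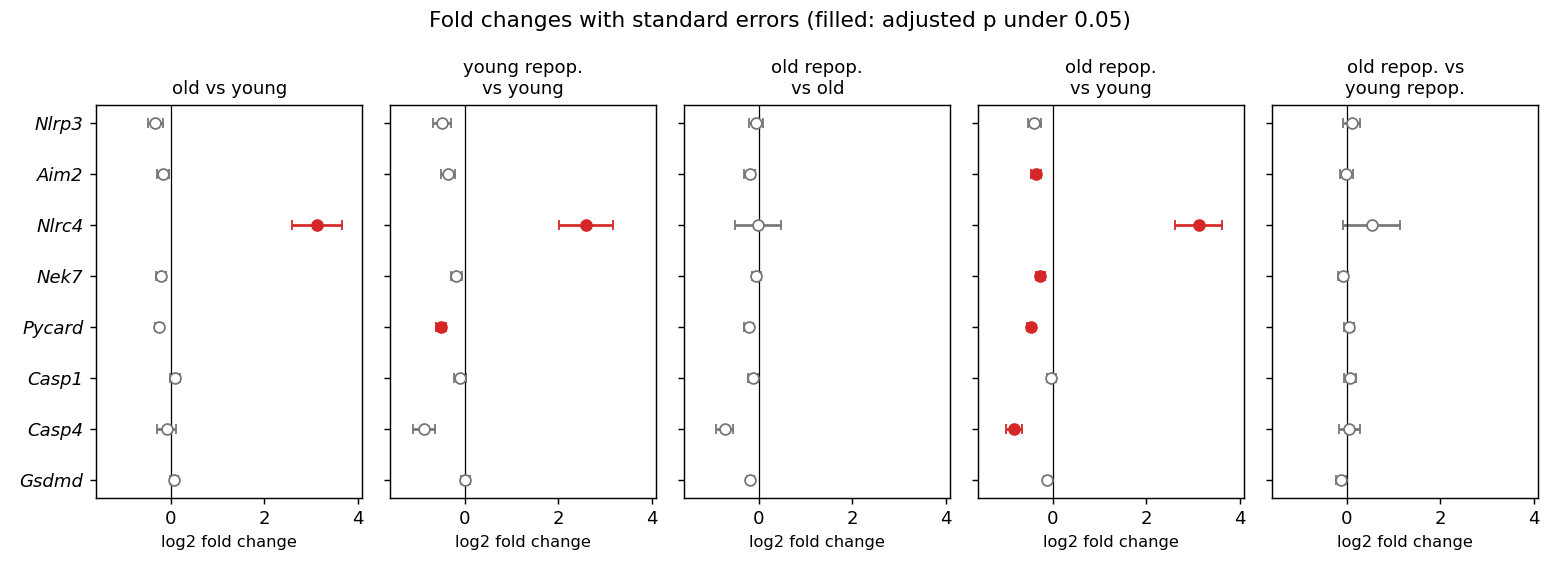
Log2 difference of each gene with its standard error in the 5 comparisons, filled where the adjusted p was under 0.05. Nlrc4 is far to the right in the 3 comparisons with young mice, while Pycard, Casp4, Aim2, Nek7 and Nlrp3 lie to the left of 0 in each of those 3.

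Nlrc4, the sensor for NAIP-bound bacterial proteins, rose in each of the other groups against the young. The young libraries gave 0.448, 0.662 and 2.19 CPM (lowest, median, highest). The 3 young repopulated libraries gave 4.42, 9.02 and 2.94 CPM. The 5 old libraries gave 2.49, 8.36, 15.1, 3.90 and 10.0 CPM. Each of those 8 libraries was above the highest young library. The old repopulated libraries gave 2.00, 8.76 and 14.9 CPM (lowest, median, highest), and the 2 lowest, replicates 1 (2.00) and 4 (2.11), were below young replicate 3 (2.19), so those groups overlapped. The values rest on 22 to 97 counts in the young libraries and 98 to 685 in the others.

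Against the young, Nlrc4 was higher by 3.14 ± 0.53 on the log2 scale in old mice (8.80-fold, adjusted p = 0.00368). It was higher by 2.59 ± 0.58 in young repopulated mice (6.02-fold, adjusted p = 0.0276) and by 3.12 ± 0.50 in old repopulated mice (8.70-fold, adjusted p = 0.000674). Without young replicate 3, the highest young library, these differences were 3.52, 2.98 and 3.51. Old repopulated and old mice differed by -0.02 ± 0.50 (adjusted p = 0.998), with a 95% interval from -1.05 to 1.02 that leaves room for a change of either sign. The change with repopulation in old mice minus that in young mice was -2.61 ± 0.76 for Nlrc4, with an unadjusted p of 0.00232 and an adjusted p of 0.410.

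Calls of Nlrc4 in old and old repopulated mice held without any single library. The call in young repopulated mice did not: it was lost without young replicate 2, 5, 6 or 7 or without young repopulated replicate 1 or 2, with log2 differences of 2.05 to 2.72 and adjusted p from 0.0527 to 0.229. The titles number the libraries, and those numbered 1 to 11 and 12 to 24 were also fitted apart, without a source that says whether they were prepared apart. Within 1 to 11 Nlrc4 was 2.37 ± 0.92 higher in old than in young mice (adjusted p = 1, 3 young and 2 old libraries), and within 12 to 24 it was 3.59 ± 0.49 higher (adjusted p = 0.000659). For old repopulated against young mice the same 2 fits gave 2.53 ± 0.83 (adjusted p = 0.384) and 3.78 ± 0.49 (adjusted p = 0.00014). All 3 young repopulated libraries are numbered above 12, and within those numbers Nlrc4 was 2.79 ± 0.48 higher than in young mice (adjusted p = 0.00442). With the number run as a term in the fit to all libraries, that call was lost (2.36 ± 0.62, adjusted p = 0.0531).

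The libraries also differed in RNA of other myeloid cells, and the summed markers mostly moved with Nlrc4. Over 8 microglial markers, P2ry12 and Tmem119 among them, the summed level was 23403 to 28767 CPM in young, 21069 to 24420 in young repopulated, 9467 to 23766 in old and 8759 to 27053 in old repopulated libraries, so the labelled cell type was present in every library. Over 7 markers of border-associated macrophages the sum was 58.2 to 223, 295 to 411, 182 to 878 and 70.3 to 1235 CPM in the same order. Its genes did not move alike. Mean F13a1 was 27.8, 92.9, 178 and 283 CPM and mean Ms4a7 17.1, 94.3, 114 and 114 CPM in that order. Mean Lyve1 was 3.76, 10.9, 5.86 and 4.79 CPM, and mean Cd163 was 13.4, 5.46, 22.3 and 8.04 CPM. Over 5 dendritic markers the sum was 4.44 to 8.75, 11.9 to 25.9, 9.02 to 61.7 and 7.15 to 38.6 CPM. These genes did not move alike either. Mean Flt3 was 1.44, 7.48, 16.6 and 13.9 CPM and mean Cd209a 0.170, 6.45, 4.33 and 5.21 CPM. Mean Zbtb46 was 2.85, 3.34, 3.45 and 3.01 CPM, and mean Xcr1 was 0.881, 0.333, 0.662 and 0.352 CPM. No border-macrophage marker was at 0 in any library, and among the dendritic markers Cd209a and Xcr1 were at 0 in 2 libraries each and Clec9a in 1.

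Over 10 monocyte and neutrophil markers the sum was 496 to 633 CPM in young, 589 to 793 in young repopulated, 632 to 1685 in old and 436 to 1244 in old repopulated libraries. Most of that sum was Csf3r, which did not move with the rest: its mean was 505, 508, 391 and 332 CPM in that order. In both old groups 9 of the 10 markers were higher than in the young and 1, Csf3r, was lower. Without Csf3r, left out after its level was seen, the sum was 22.4 to 131, 77.2 to 296, 161 to 1407 and 97.3 to 1022 CPM. The neutrophil gene Ly6g was at 0 in 6 libraries and at most at 0.962 CPM. Against the young, 7 of the 10 were called higher in old mice, beside 2 of the 7 border-macrophage and 2 of the 5 dendritic markers (2.6% of all genes). Of the 8 microglial markers 1 was called lower (0.235%). In old repopulated mice the same counts were 7, 5 and 2 higher (9.29%) and 3 lower (5.92%). In young repopulated mice they were 0, 1 and 1 higher and 0 lower, where 1.34% of all genes were called. T and natural killer cell markers summed to at most 1.25 CPM in any library.

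Within groups the extremes of Nlrc4 mostly lay with the extremes of these sums. Among the old libraries, replicate 1 had the least Nlrc4 (2.49 CPM), the lowest border-macrophage sum (182) and the highest microglial sum (23766), and replicate 3 had the most Nlrc4 (15.1 CPM), the highest border-macrophage sum (878) and the lowest microglial sum (9467). Among the old repopulated libraries, replicates 1 and 4 had the least Nlrc4, border-macrophage sums of 70.3 and 164 CPM, within the young range, and microglial sums of 27053 and 24280 CPM. Young replicate 3, with the most Nlrc4 of the young (2.19 CPM), also had the highest border-macrophage sum of its group (223). Young repopulated replicate 2, with the most Nlrc4 of its group (9.02 CPM), had the middle border-macrophage sum (333) and the highest dendritic sum (25.9). The part of these markers in the Nlrc4 result was not tested.

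**Figure D3:**
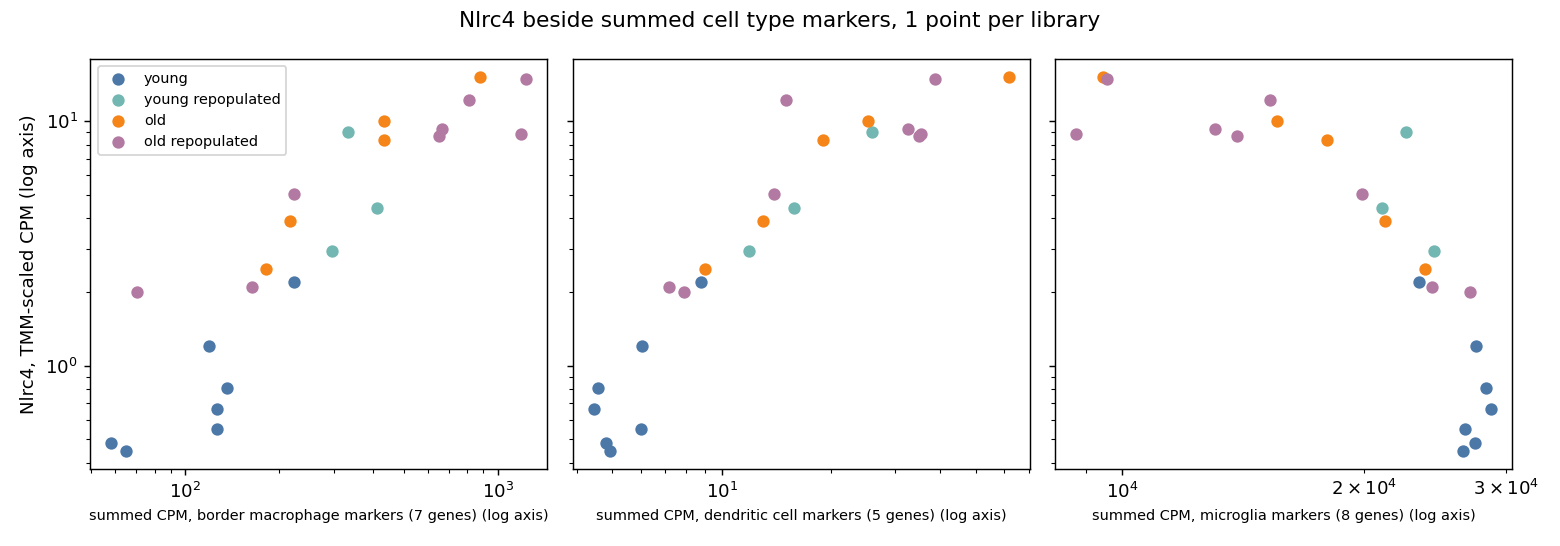
Nlrc4 CPM of each of the 23 libraries against the summed CPM of 7 border-macrophage, 5 dendritic and 8 microglial markers (log axes), coloured by group. Young libraries lie at the low end of Nlrc4 and of the dendritic markers, and the libraries with the least microglial marker RNA are old or old repopulated.

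The other sensors changed less. Nlrp3 gave 426, 499 and 719 CPM in the young (lowest, median, highest). The young repopulated libraries gave 354, 402 and 465 CPM. The old libraries gave 569, 428, 303, 498 and 482 CPM. The old repopulated libraries gave 339, 456 and 514 CPM (lowest, median, highest). Young replicates 2, 3 and 6 stood at 704 to 719 CPM, above every library of the other groups, and the remaining young libraries overlapped all 3. Nlrp3 was not called in any comparison by edgeR on all 23 libraries. Its difference was -0.40 ± 0.14 in old repopulated against young mice (adjusted p = 0.0555), -0.50 ± 0.19 in young repopulated against young (adjusted p = 0.210) and -0.33 ± 0.16 in old against young (adjusted p = 0.321). The first passed the threshold without young replicate 1, old replicate 3 or old repopulated replicate 1 (adjusted p from 0.0337 to 0.0414).

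Aim2, the DNA sensor, fell in old repopulated against young mice. It gave 100.3, 116 and 134 CPM in the young (lowest, median, highest) and 73.4, 90.0 and 129.6 CPM in the old repopulated libraries, which overlapped. The difference was -0.37 ± 0.11 (1.29-fold lower, adjusted p = 0.0281). The 3 young repopulated libraries, at 93.7, 87.2 and 99.5 CPM, were below all 7 young libraries, with a difference of -0.35 ± 0.15 that was not called (adjusted p = 0.260), though voom (adjusted p = 0.0363) and the compared groups alone (adjusted p = 0.0444) called it. The old libraries spread over 126, 101, 85.1, 119 and 99.8 CPM, across the young range. The call in old repopulated mice was lost without young replicate 1, 2 or 6 or old repopulated replicate 5, 6, 7 or 8 (adjusted p from 0.0542 to 0.0660).

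Nek7, the kinase that binds NLRP3, fell by 0.27 ± 0.09 in old repopulated against young mice (1.20-fold, adjusted p = 0.0413). The young libraries gave 203, 226 and 243 CPM and the old repopulated libraries 157, 182 and 237 CPM (lowest, median, highest), and the groups overlapped. Old libraries gave 221, 207, 155, 193 and 192 CPM, and young repopulated libraries 193, 184 and 214 CPM, neither of them called against the young by edgeR on all libraries. In old against young mice, voom (-0.23 ± 0.07, adjusted p = 0.0318) and the fit within library numbers 12 to 24 (-0.34 ± 0.10, adjusted p = 0.0350) did call Nek7 lower. The call in old repopulated mice was lost without any of 13 libraries: young replicates 2, 4, 5, 6 and 7, young repopulated replicates 1 and 2, old replicate 2 and old repopulated replicates 2, 5, 6, 7 and 8 (adjusted p from 0.0518 to 0.0875).

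The microglial marker sum differed alongside Aim2 and Nek7. In old repopulated replicates 1 and 4, whose microglial sums lay within the young range, Aim2 was at 129.6 and 105 CPM and Nek7 at 205 and 237 CPM, inside the young ranges. The lowest Nek7 values, 155 CPM in old replicate 3 and 157 CPM in old repopulated replicate 8, came with the lowest microglial sums of their groups, 9467 and 8759 CPM. The part of microglial RNA content in these results was not tested.

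Pycard encodes ASC, the adaptor that links sensors to caspase-1, and fell in both repopulated groups. The young libraries gave 109, 126 and 151 CPM (lowest, median, highest). The young repopulated libraries gave 85.6, 87.6 and 94.5 CPM. The old repopulated libraries gave 66.8, 93.2 and 103 CPM (lowest, median, highest). All 11 repopulated libraries were below the lowest young library.

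The difference in Pycard was -0.51 ± 0.11 in young repopulated against young (1.43-fold lower, adjusted p = 0.0239) and -0.48 ± 0.08 in old repopulated against young (1.39-fold lower, adjusted p = 0.000912). The second held without any single library, while the first was lost without young repopulated replicate 1, 2 or 3 (adjusted p from 0.0661 to 0.203). The old libraries gave 112, 103, 98.6, 109 and 110.4 CPM, between the other groups, and were called neither against the young (-0.26 ± 0.09, adjusted p = 0.156) nor against the old repopulated (-0.22 ± 0.09, adjusted p = 0.346). In old repopulated replicates 1 and 4, with microglial marker sums inside the young range, Pycard was at 85.5 and 99.3 CPM, below every young library. The part of microglial RNA content in the Pycard result was not tested.

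Within library numbers 1 to 11 the Pycard difference between old repopulated and young mice was -0.49 ± 0.16 (adjusted p = 0.383), and within 12 to 24 it was -0.43 ± 0.07 (adjusted p = 0.000771). Young repopulated against young mice gave -0.50 ± 0.07 within 12 to 24 (adjusted p = 0.00221). Within those numbers old mice were also called lower than young mice, by -0.27 ± 0.07 (adjusted p = 0.0259), as voom did on all libraries (-0.25 ± 0.07, adjusted p = 0.0194).

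**Figure D4:**
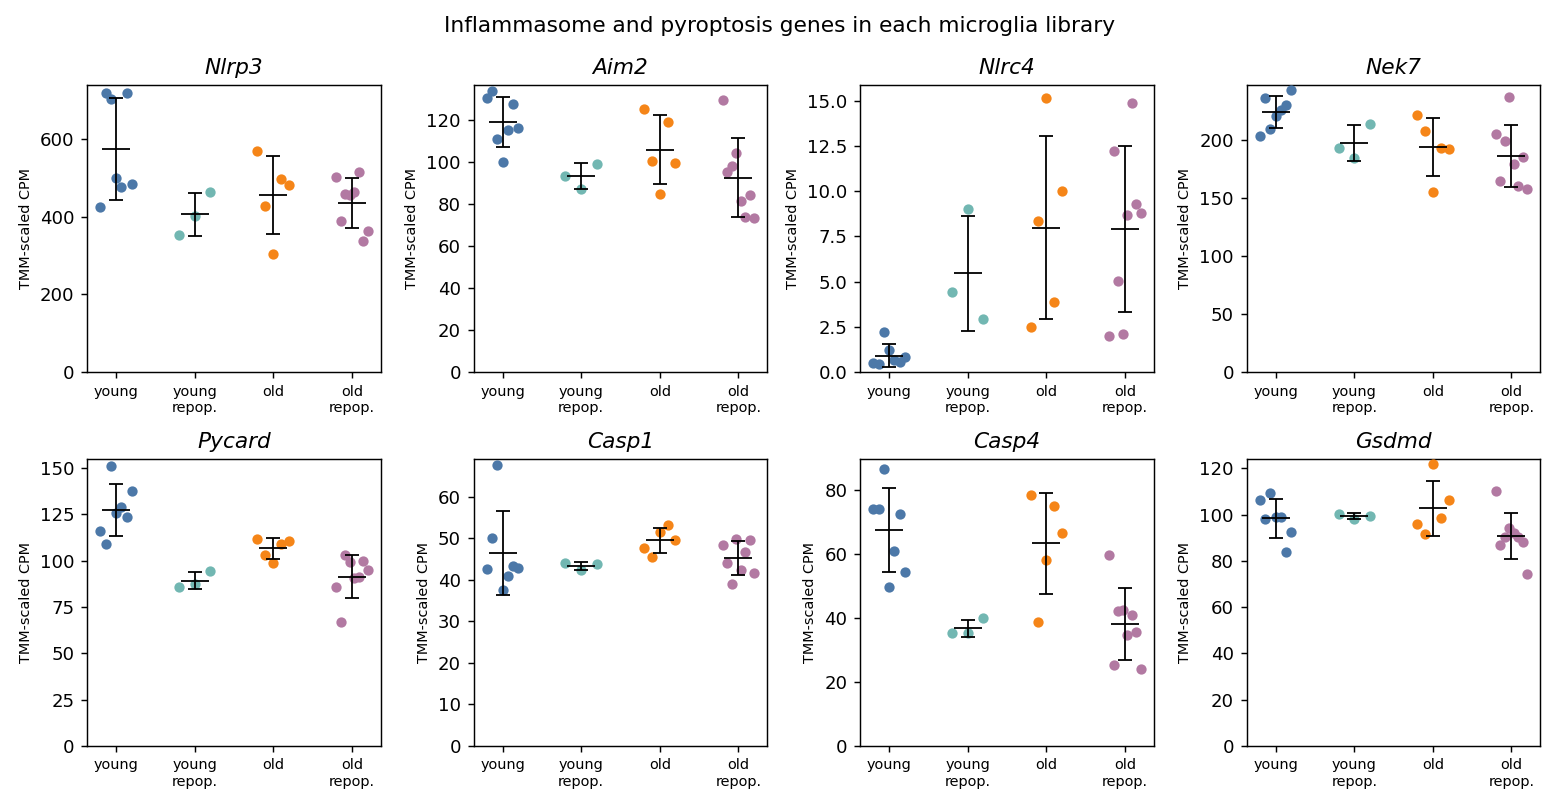
CPM of the 8 genes in each library by group, with the group mean and SD. For Pycard all repopulated libraries lie below the 109 CPM of the lowest young library, and for Casp4 the 3 young repopulated libraries lie between 35.1 and 39.8 CPM.

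The caspase pair split. Casp4, for caspase-11, fell in old repopulated against young mice, and Casp1, its neighbour upstream, was not called in any comparison by edgeR on all 23 libraries. Casp4 gave 49.6, 72.4 and 86.5 CPM in the young (lowest, median, highest). The young repopulated libraries gave 35.1, 35.2 and 39.8 CPM. The old libraries gave 78.2, 38.6, 57.97, 74.7 and 66.4 CPM. The old repopulated libraries gave 23.9, 38.1 and 59.4 CPM (lowest, median, highest). All young repopulated libraries and 7 of the 8 old repopulated libraries were below the lowest young library, and the exception was old repopulated replicate 1 at 59.4 CPM.

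The log2 difference of Casp4 between old repopulated and young mice was -0.83 ± 0.17 (1.77-fold lower, adjusted p = 0.0034), and the call held without any single library. Its differences of -0.88 ± 0.24 in young repopulated against young (1.83-fold, adjusted p = 0.0716) and of -0.73 ± 0.19 in old repopulated against old (1.66-fold, adjusted p = 0.0885) were of similar size and were not called. The first passed without old repopulated replicate 1 (adjusted p = 0.0375) and the second without old replicate 2 or old repopulated replicate 1 (adjusted p of 0.0254 and 0.0242). The first was also called by DESeq2 (adjusted p = 0.0133), by voom (0.00555), with the compared groups alone (0.00755) and within library numbers 12 to 24 (0.0334), and the second by DESeq2 (0.0178), by voom (0.0282) and within 12 to 24 (0.00756). Old replicate 2, at 38.6 CPM, was the 1 old library in the range of the young repopulated group. Old and young mice differed by -0.09 ± 0.20 (adjusted p = 0.888, 95% interval from -0.50 to 0.32).

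Within library numbers 1 to 11, Casp4 differed by -0.94 ± 0.26 between old repopulated and young mice (adjusted p = 0.359), and within 12 to 24 by -0.82 ± 0.17 (adjusted p = 0.0026). In old repopulated replicate 4, with a microglial marker sum of 24280 CPM, Casp4 was at 42.3 CPM, below every young library, and in replicate 1, with 27053 CPM, it was inside the young range. The 12 interferon-response genes listed for comparison summed to 682 to 1126 CPM in young, 691 to 841 in young repopulated, 971 to 2514 in old and 220 to 989 in old repopulated libraries. Of the 12, 3 were called lower in old repopulated than in old mice (0.214% of all genes). The part of these genes and of microglial RNA content in the Casp4 result was not tested.

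Casp1, the protease at the centre of the canonical inflammasome, gave 37.6, 42.9 and 67.6 CPM in the young (lowest, median, highest). The young repopulated libraries gave 44.1, 42.4 and 43.7 CPM, the old libraries 47.7, 45.5, 51.5, 53.2 and 49.6 CPM, and the old repopulated libraries 38.9, 45.4 and 49.8 CPM (lowest, median, highest). The highest value, young replicate 3, stood apart from the next young library at 50.0 CPM. Old and young mice differed by 0.09 ± 0.11 (adjusted p = 0.762, 95% interval from -0.14 to 0.32), or by 0.21 ± 0.08 without young replicate 3 (adjusted p = 0.172), and old repopulated and young mice by -0.04 ± 0.10 (adjusted p = 0.826, interval from -0.24 to 0.16), or by 0.08 without that library. Casp1 was called higher in old than in young mice by voom (0.23 ± 0.07, adjusted p = 0.0411) and within library numbers 12 to 24 (0.33 ± 0.08, adjusted p = 0.0117), but within 1 to 11 its sign turned (-0.20 ± 0.20, adjusted p = 1).

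Gsdmd, whose cleaved product makes the pyroptotic pore, was not called in any comparison by edgeR on all 23 libraries. It averaged 98.4 ± 8.45 CPM in young (n = 7), 99.2 ± 1.22 in young repopulated (n = 3), 103 ± 11.9 in old (n = 5) and 90.7 ± 9.87 in old repopulated mice (n = 8). Every pair of groups compared overlapped. Its differences ran from -0.18 ± 0.08 in old repopulated against old (adjusted p = 0.446; -0.37 ± 0.10 within library numbers 12 to 24, adjusted p = 0.0307) to 0.06 ± 0.09 in old against young (adjusted p = 0.805, interval from -0.12 to 0.24).

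No difference between the 2 repopulated groups was called among the 8 genes: the largest was 0.53 ± 0.61 for Nlrc4 (95% interval from -0.74 to 1.80), and the smallest adjusted p was 0.588, for Gsdmd. For Pycard the interval was -0.19 to 0.26 and for Casp4 -0.42 to 0.52. The repopulation effect did not pass a test of difference between old and young mice for any of the 8 genes in edgeR, where 0 of all 18720 genes passed (0%). By edgeR 1 of the 8 had an unadjusted p under 0.05 (background 8.24%). DESeq2 and voom called 0 of the 8 (background 0.285% and 0.807%). The edgeR difference in effect was 0.43 ± 0.25 for Nlrp3 (adjusted p = 0.678), 0.29 ± 0.14 for Pycard (adjusted p = 0.605) and 0.14 ± 0.30 for Casp4 (adjusted p = 0.961).

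Among 45 further genes of the pathway, in lists of other sensors, triggers and regulators, effectors, brakes and transcriptional inputs, 44 were tested (Nlrp6 was not). In old against young mice 7 were called higher and 0 lower, against 2.6% and 0.235% of all genes. Between old repopulated and young mice 9 were called higher and 7 lower (9.29% and 5.92% of all genes), between old repopulated and old mice 1 was called lower (0.214%), and in young repopulated against young and old repopulated against young repopulated mice edgeR called 0. In the last 2 comparisons 12 and 9 had an unadjusted p under 0.05 (15.1% and 11.7% of all genes). DESeq2 called 2 and 0 there (4.53% and 0.433% of all genes with an adjusted p), and voom called 6 and 12 (13.8% and 17% of all genes). Within library numbers 12 to 24 the counts were 4 and 26 (9.3% and 36.3% of all genes). The 26 were 11 higher and 15 lower. With the number run as a term they were 0 and 4 (1.74% and 4.52%), and with the compared groups alone 4 and 0 (7.5% and 0%). The count between old repopulated and old mice also depended on the fit, at 9 lower by DESeq2 and 7 lower by voom, which each called 2.21% of all genes, and at 12 lower and 1 higher within library numbers 12 to 24, where 12.7% of all genes were called.

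Of the 9 other sensors, Mefv (pyrin) and Naip1 were called higher in old than in young mice. Mefv went from 1.67 ± 3.17 CPM (n = 7) to 31.7 ± 29.5 (n = 5), a log2 difference of 4.25 ± 1.06 (adjusted p = 0.0306), and Naip1 from 0.129 ± 0.126 to 1.99 ± 1.64, a difference of 3.92 ± 0.94 (adjusted p = 0.0251). Both were also called in old repopulated against young mice, at 3.89 ± 1.002 (adjusted p = 0.0121) and 3.38 ± 0.88 (adjusted p = 0.0131). Naip5 and Naip6, further partners of NLRC4, went the other way in that comparison. Naip5 fell from 146 ± 9.23 to 92.9 ± 19.6 CPM (difference -0.65 ± 0.11, adjusted p = 0.000864) with no overlap between the groups, and Naip6 from 76.3 ± 7.91 to 54.6 ± 10.6 CPM (difference -0.48 ± 0.10, adjusted p = 0.00439). The Naip genes are near-identical relatives between which the counting can split reads, so these values are uncertain.

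Of the 12 triggers and regulators, Pstpip1, which binds pyrin, and Brcc3, an enzyme that removes ubiquitin from NLRP3, were called higher in old than in young mice. Pstpip1 rose from 14.7 ± 7.52 to 40.1 ± 24.2 CPM (difference 1.45 ± 0.35, adjusted p = 0.0251) and stood at 50.0 ± 20.4 CPM in old repopulated mice (difference from young 1.77 ± 0.32, adjusted p = 0.00145). Brcc3 rose from 17.8 ± 1.59 to 23.9 ± 2.71 CPM (difference 0.42 ± 0.11, adjusted p = 0.0350). The channel gene Panx1 was called higher in old repopulated than in young mice, by 0.55 ± 0.16 (adjusted p = 0.0273).

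Guanylate-binding proteins help expose bacterial lipopolysaccharide to caspase-11, and 2 of them fell together with Casp4 in old repopulated against young mice. Gbp2 fell from 37.3 ± 9.41 to 21.7 ± 5.76 CPM (difference -0.78 ± 0.18, adjusted p = 0.00731) and Gbp5 from 31.6 ± 5.48 to 18.4 ± 5.08 CPM (difference -0.78 ± 0.15, adjusted p = 0.00155). Gbp2 was the 1 gene of the 44 that edgeR called in old repopulated against old mice, where it was at 44.8 ± 10.9 CPM in the old with no overlap (difference -1.04 ± 0.20, adjusted p = 0.0305, groups nonoverlapping and lower for 0.433% of all genes). That call was lost without old replicate 1, 3, 4 or 5 or old repopulated replicate 4 or 8 (adjusted p from 0.0540 to 0.0929). The Gbp genes also have close relatives, and their counts carry the same uncertainty.

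The 2 cytokines matured by caspase-1 differed. Il18 fell from 21.1 ± 2.37 CPM in young to 12.9 ± 3.08 in old repopulated mice with no overlap (difference -0.71 ± 0.13, adjusted p = 0.00146). Il1b was at 572 ± 122 CPM in young and 659 ± 380 in old repopulated mice and was not called by edgeR on all 23 libraries (difference 0.20 ± 0.24, adjusted p = 0.614). Apart from leaving out single libraries, 1 of 11 alternative fits called Il1b higher and 1 turned its sign, with differences from -0.37 to 0.85. One library, old repopulated replicate 6, held 1520 CPM of Il1b against a group median of 494. Ninj1, which ruptures the membrane after pore formation, was called higher in old repopulated than in young mice, at 99.6 ± 43.2 against 57.3 ± 8.74 CPM (difference 0.80 ± 0.25, adjusted p = 0.0311).

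Of the 8 brakes, 3 were called higher in old than in young mice. The decoy receptor Il1r2 went from 3.35 ± 3.46 to 34.2 ± 34.3 CPM (difference 3.35 ± 0.78, adjusted p = 0.0203). The protease inhibitor Serpinb1a went from 0.443 ± 0.161 to 2.07 ± 0.956 CPM (difference 2.21 ± 0.50, adjusted p = 0.0177). Il18bp, which captures interleukin-18, went from 8.31 ± 1.56 to 24.6 ± 10.97 CPM (difference 1.57 ± 0.43, adjusted p = 0.0488), and its old libraries were all above the young ones. Between old repopulated and young mice Il1r2 (3.14 ± 0.73, adjusted p = 0.00676), Serpinb1a (2.25 ± 0.46, adjusted p = 0.0033) and the receptor antagonist Il1rn (1.46 ± 0.48, adjusted p = 0.0413) were called higher. Of the 7 transcriptional inputs, Rela, an NF-kappaB subunit, was called lower there, from 124 ± 15.1 to 95.7 ± 18.9 CPM (difference -0.38 ± 0.11, adjusted p = 0.0243).

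Many of these calls depended on single libraries. Old replicate 3 had the lowest microglial and the highest border-macrophage sum of the old libraries. Without it, 7 of the 7 calls in old against young mice were lost (adjusted p from 0.0807 to 0.219). The share of all genes called there fell as well, from 2.83% to 0.536%. Without old replicate 5, or young replicate 4, 6 or 7, 6 of the 7 were lost (adjusted p from 0.0501 to 0.151), with 1.13%, 1.51%, 1.45% and 1.47% of all genes called. Leaving out young replicate 1, 2 or 5 removed 3, 3 and 4 of the 7 calls (2.06%, 1.89% and 1.67% of all genes called). Il18bp was also lost without young repopulated replicate 3, old replicate 2 or old repopulated replicate 4, 6 or 7. In old repopulated against young mice the share of all genes called ran from 10.5% to 25.7% without 1 library (15.2% with all). Between old repopulated and young mice, Il1rn lost its call without any of 11 libraries (young replicates 1, 2, 4, 5, 6 and 7, young repopulated replicates 1 and 3, old repopulated replicates 6, 7 and 8). Ninj1 lost it without young replicate 1, 2, 5, 6 or 7 or old repopulated replicate 5, 6 or 8 (adjusted p from 0.0505 to 0.0753). Rela lost it without young replicate 2 or 3 or old repopulated replicate 6, 7 or 8 (0.0509 to 0.0565), and Panx1 without young replicate 4 or old repopulated replicate 5, 6 or 8 (0.0501 to 0.0621). Il1rn was at 0.82 without old repopulated replicate 6 (adjusted p = 0.162). Old replicate 3 also carried size: without it Il1r2 was at 2.55 and Mefv at 3.66 in old against young mice. Without young replicate 3 the differences of Mefv grew to 6.04 in old and 5.69 in old repopulated mice, and those of Il1r2 to 4.03 and 3.82. Without that library Pstpip1 was at 1.75 and 2.07, and Ninj1 at 0.88 in old repopulated mice. The calls named above for Mefv, Naip1, Naip5, Naip6, Pstpip1, Gbp2, Gbp5, Il18, Il1r2 and Serpinb1a in that comparison held without any single library. The part of border-macrophage, monocyte and dendritic RNA in the genes that rose was not tested.

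**Figure D5:**
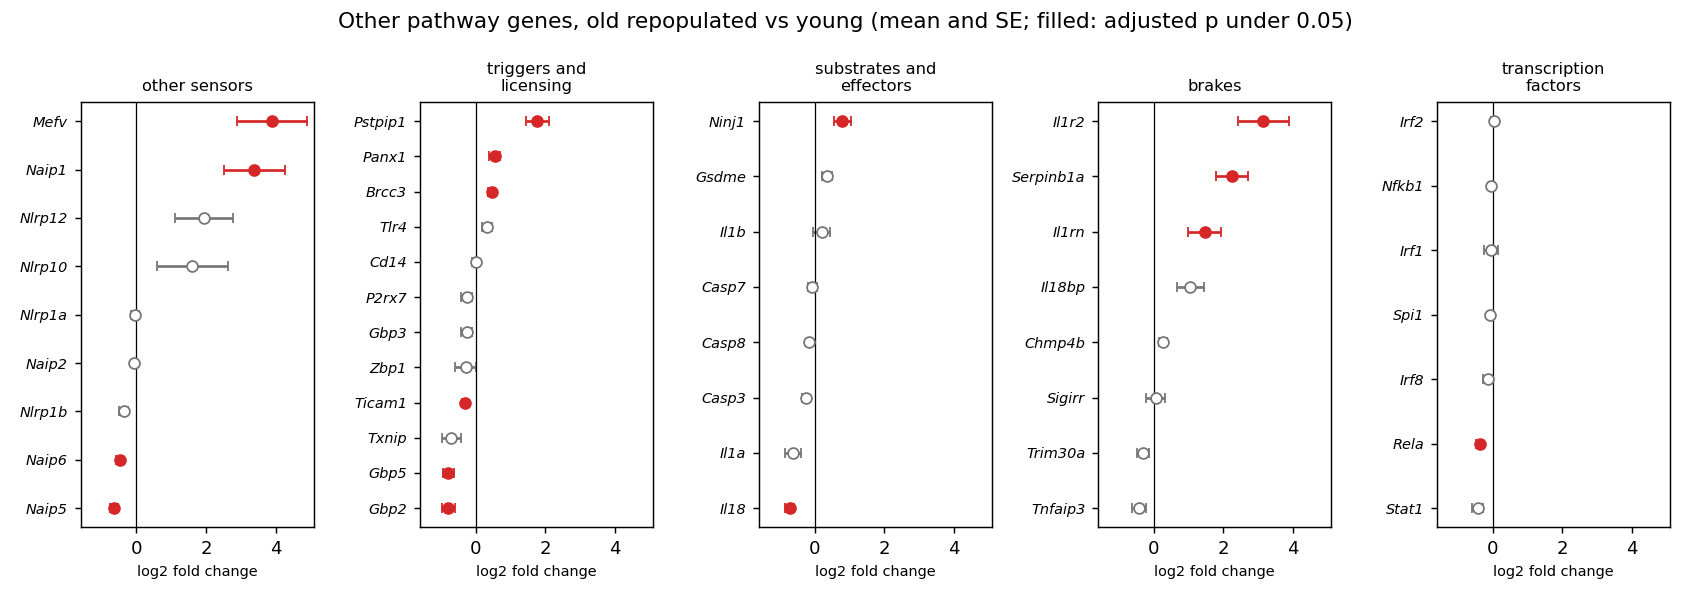
Log2 difference with its standard error of the 44 other pathway genes in old repopulated against young mice, by list, filled where the adjusted p was under 0.05. Mefv, Naip1, Il1r2 and Serpinb1a lie farthest to the right, between 2.25 and 3.89, and Naip5, Gbp2, Gbp5 and Il18 lie to the left, between -0.78 and -0.65.

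Each gene was also set beside the 11131 genes with a mean of at least 1 CPM to see whose pattern over the 23 libraries was most like it, by the root mean square difference of standardised log2 CPM in units of SD, where the median gene stood 1.38 to 1.41 away. Nlrc4 was closest to Ms4a4a (0.164) and Runx2 (0.208), whose mean CPM went from 7.17 to 84.2 and from 0.438 to 8.90 between young and old mice. Pycard was closest to Brox (0.348) and Farp1 (0.467), Casp4 to Skil (0.442) and Tead3 (0.446), Aim2 to Wsb1 (0.354) and Cds1 (0.380), and Nek7 to Eya4 (0.308) and Pros1 (0.328). Nlrp3 was closest to Gtf2ird1 (0.582) and Dyrk2 (0.586), Gsdmd to Dtx3l (0.526) and Igtp (0.534), and Casp1 to Atg4d (0.701) and Utp3 (0.783). Among the 8 genes the closest pairs were Aim2 with Nek7 (0.661) and Casp4 with Aim2 (0.666), and the farthest were Nlrc4 with Nek7 (1.87) and with Aim2 (1.87). These distances describe libraries that share group and cell content, and they carry no test.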

How the data were processed

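Messenger RNA of microglia was measured in 23 libraries, with 1 deposited table each. Per the labels' protocols, the libraries were poly(A)-selected and stranded, took 2.4 to 147 ng of RNA, and were read as single 50 nt reads. Per the submitters' processing notes, FastQC 0.11.5, STAR, RSEM, limma and GRCm38 were used. For the annotation and the strand setting, no source used here gives them. The authors deposited RSEM expected counts per gene (87.26% of them whole within 1e-06), TPM, which divides by gene length, and effective lengths. Of the 53090 identifiers, 52403 were found in GENCODE M21 with the version ignored.

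Expected counts were rounded to whole numbers and analysed in R 4.3.3 with edgeR 4.0.16 (filterByExpr, TMM, glmQLFit and glmQLFTest), on all 23 libraries with 1 coefficient per group and 6 contrasts. P-values were adjusted by Benjamini-Hochberg over 18720 genes. SE is the log2 difference divided by the square root of F, and 95% intervals use 19 residual degrees of freedom. TPM served to compare levels between genes. DESeq2 1.42.0 and limma 3.58.1 (voom) were among the alternatives. No 2 libraries of a group agreed within sampling noise (62 pairs, chi-square per degree of freedom at least 17.8). The fits were tested on simulated data.

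The 8 genes and the gene lists were chosen with earlier results of these data known. Pathway genes named are Il1b, Il18 and up to 4 per list and contrast, those called with the largest log2 differences. For likeness the 2 nearest genes are named. The motifs, the 4 promoters shown and the marker sum without Csf3r were chosen after the values were seen.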

Additional observations from a re-analysis of the deposited data

Results flagged for a closer look

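In 8 cases a library stood apart from the rest of its group in 1 gene, by Dixon's gap criterion at 95%, among 75 groups of 5 to 8 libraries tested over 25 genes. For normally distributed values chance alone flags about 1 group in 20. That rate was not checked for these CPM, which were not put on a log scale. Each of the 8 flagged libraries was the highest of its group. Of the 8 inflammasome genes, Casp1 alone had such a library, young replicate 3 at 67.6 CPM, with the next young library at 50.0.

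Young replicate 3 was also the highest of its group for Mefv (8.82 CPM, next 1.07), Il1r2 (10.9, next 4.02), Pstpip1 (31.1, next 15.6) and Ninj1 (75.2, next 59.8). Old repopulated replicate 6 was the highest of its group for Il1b (1520 CPM, next 770) and Il1rn (266 CPM, next 109). Young replicate 1 was the highest for Naip1, at 0.375 CPM with the next at 0.154. Young replicate 3 had the highest border-macrophage marker sum of the young libraries (223 CPM), and old repopulated replicate 6 the highest of all 23 (1235 CPM); their part in these values was not tested.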

How the results depend on the processing

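The alternatives were other size factors (DESeq2's median ratio and upper quartile), no filter on low counts, a mean of 1 CPM, DESeq2, voom with quality weights per sample, a fit to the compared groups alone, an offset for effective length, the library number run as a term or fitted apart, and leaving out each of the 23 libraries. The number of the 8 genes called is given with the share of all genes called in the same fit. In old against young mice (1 as reported, 2.83%) it became 4 with voom (12.6%), 0 within library numbers 1 to 11 (0.00533%) and 4 within 12 to 24 (15.7%), with Pycard, Casp1 and Nek7 beside Nlrc4 in voom and within 12 to 24. Between old repopulated and old mice (0 as reported, 0.278%) it became 1 with DESeq2 (2.21%) and 1 with voom (2.21%), both Casp4, and 2 within 12 to 24 (12.7%), Casp4 and Gsdmd. In young repopulated against young mice (2 as reported, 1.34%) it became 4 with voom (13.8%) and 4 with the compared groups alone (7.5%), where Casp4 and Aim2 were added, and 1 with the run as a term (1.74%), where Nlrc4 was lost. In old repopulated against young mice (5 as reported, 15.2%) it became 0 within 1 to 11 (0.0107%), with 3 young and 5 old repopulated libraries. The difference in repopulation effect (0 as reported) reached 2 within 12 to 24 (8.87%), Gsdmd at -0.48 (adjusted p = 0.0439) and Nlrc4 at -2.60 (adjusted p = 0.0347). The cause of these changes was not tested.

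Leaving out 1 library also moved the share of all genes called, given in brackets. The calls were 1 to 1 in old against young (0.536% to 5.06%) and 0 to 1 in old repopulated against old (0.0268% to 0.995%). They were 0 to 3 in young repopulated against young (0.166% to 2.19%) and 3 to 6 in old repopulated against young (10.5% to 25.7%). Between the repopulated groups and in the difference of effects they were 0 to 0 (at most 0.00538% and 0.0054%). The count of 3 in old repopulated against young mice came without young replicate 2 or 6 or old repopulated replicate 5, 6, 7 or 8, and the count of 0 in young repopulated mice without its replicate 1 or 2. Nek7 in old repopulated against young mice also lost its call with no filter (adjusted p = 0.0739), the length offset (0.0567) and only the groups compared (0.0605). Nlrp3 there gained one with the upper quartile (0.0404), a mean of 1 CPM (0.0402), DESeq2 (0.0317), voom (0.0255) and the run as a term (0.0242).

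Signs turned only for values that were not called as reported. Upper-quartile factors gave -0.016 for Gsdmd in young repopulated against young mice and -0.0011 for Pycard between the repopulated groups, and the 1 CPM filter gave -0.003 for Gsdmd in the former. With voom, Nlrc4 in old repopulated against old was 0.14, Casp1 0.054 in young repopulated and 0.11 in old repopulated against young, Nlrp3 -0.021 and Casp4 -0.10 between the repopulated groups, and Casp4 -0.087 in the difference of effects. With the run as a term these were Nlrc4 0.079, Nlrp3 -0.018, Casp4 -0.091 and, in the difference of effects, Casp4 -0.025 and Aim2 -0.0078. Within 1 to 11, old against young gave Casp1 -0.20 and Gsdmd -0.16, old repopulated against old Gsdmd 0.020 and Nlrc4 0.16, and old repopulated against young Il1b -0.37. Within 12 to 24, Casp4 was 0.18 in old against young, Nlrc4 0.19 in old repopulated against old, Casp1 0.11 and 0.17 in young and old repopulated against young, Nlrp3 -0.027 and Casp4 -0.16 between the repopulated groups, and Casp4 -0.34 and Aim2 -0.13 in the difference of effects.

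Leaving out 1 library turned the sign within these ranges: Casp4 -0.16 to 0.062 and Gsdmd -0.0052 to 0.13 in old against young, Nlrp3 -0.18 to 0.026 and Nlrc4 -0.25 to 0.35 in old repopulated against old, Casp1 -0.14 to 0.017 and Gsdmd -0.022 to 0.060 in young repopulated against young. They were Casp1 -0.084 to 0.075 and Il1b -0.095 to 0.32 in old repopulated against young, Casp4 -0.066 to 0.12 and Aim2 -0.091 to 0.036 between the repopulated groups, and Casp1 -0.15 to 0.011 and Casp4 -0.011 to 0.22 in the difference of effects. No paired analysis was possible because the labels give no replicate number that groups share. Depth limits Nlrc4 in the young, at 22 to 97 counts, and the 3 young repopulated libraries limit every comparison with them.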
